A study of Mus musculus with 15 samples.

Results

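The muscle acetylcholine receptor and the proteins that gather it at the neuromuscular junction were followed through 10 genes, which were the rows of the count matrix whose Ensembl identifiers carry these symbols in GRCm38, 10 of 30672 genes in all. They were the receptor subunits *Chrna1*, *Chrnb1*, *Chrnd*, *Chrne* and *Chrng*, the signalling genes *Musk*, *Dok7* and *Lrp4*, the scaffold gene *Rapsn* and the collagen tail gene *Colq*. The RNA came from the tibialis anterior, a fast muscle of the lower hindlimb, of male 129Pas mice aged 7 weeks. The 15 libraries were made with a stranded kit for polyadenylated RNA and fell into 4 groups. Untreated wild type mice formed the group WT (n = 4), and wild type mice given tamoxifen, a ligand of the estrogen receptors, formed WT + TAM (n = 4). Mice lacking *Mtm1*, whose product myotubularin removes a phosphate from phosphoinositide lipids, formed Mtm1-/y (n = 4), and those given tamoxifen formed Mtm1-/y + TAM (n = 3). The study asked how tamoxifen acts on a mouse model of X-linked myotubular myopathy. Neither the construction of the *Mtm1* allele nor the tamoxifen dose, route and duration is stated in the labels.

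In adult muscle the receptor is a pentamer of the alpha, beta, delta and epsilon subunits, and in fetal and denervated muscle the gamma subunit takes the place of epsilon. Agrin released by the motor nerve binds LRP4, which activates the kinase MUSK with the help of the adaptor DOK7, and rapsyn then clusters the receptors. Nerve activity keeps most receptor genes low outside the nuclei under the synapse, and loss of the nerve raises them along the whole fibre through E-boxes, the binding sites of myogenic factors, while N-boxes are sites for ETS factors in synaptic promoters.

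Promoter windows, 250 bases before and 50 after each RefSeq transcription start on GRCm38.p6, were at hand for 6 of the 10 genes (*Chrna1*, *Chrnb1*, *Chrne*, *Chrng*, *Musk* and *Dok7*), and not for *Chrnd*, *Lrp4*, *Rapsn* and *Colq*. The part of the window before its first annotated exon base is shown for the alpha subunit and for the adult and fetal subunits whose ratio is described below. Capitals mark the E-box CANNTG and the N-box CCGGAA, each looked for on both strands. The runs lie at chr2:73580339-73580588, chr11:70619217-70619444 and chr1:87205561-87205809, on the minus, minus and plus strands.
Chrna1: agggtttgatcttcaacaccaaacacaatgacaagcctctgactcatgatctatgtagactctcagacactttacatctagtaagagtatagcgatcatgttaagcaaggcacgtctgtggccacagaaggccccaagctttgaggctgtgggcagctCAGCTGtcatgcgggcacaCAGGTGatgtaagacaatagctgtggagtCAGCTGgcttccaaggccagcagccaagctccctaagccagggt
Chrne: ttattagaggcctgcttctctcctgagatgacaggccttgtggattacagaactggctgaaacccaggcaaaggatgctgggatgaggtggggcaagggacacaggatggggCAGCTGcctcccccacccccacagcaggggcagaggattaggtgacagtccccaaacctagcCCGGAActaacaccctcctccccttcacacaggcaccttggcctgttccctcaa
Chrng: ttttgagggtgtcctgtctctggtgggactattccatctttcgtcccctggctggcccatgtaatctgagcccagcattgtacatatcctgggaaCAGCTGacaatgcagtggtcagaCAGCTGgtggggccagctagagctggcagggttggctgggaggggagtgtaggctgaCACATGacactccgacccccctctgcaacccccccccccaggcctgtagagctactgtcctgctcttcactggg
*Chrna1* and *Chrng* each held 3 E-boxes, 2 of them of the form CAGCTG, and *Chrne* held 1 E-box of that form and 1 N-box. Of 32851 promoter windows of the same length, 72.3% held CANNTG at least 1 time and 17.6% at least 3 times, 16.3% held CAGCTG at least 1 time and 1.9% at least 2 times, and 14.9% held CCGGAA. The window of *Musk* held 3 E-boxes, 1 of them CAGCTG, that of *Chrnb1* held 3 of other forms, and the windows at both starts of *Dok7* held 1 and 0. A match is a description of the letters and not a binding site. The RefSeq start used for *Chrng* lies inside the gene as the count annotation draws it, which begins at base 87204657 of chromosome 1. The bases printed for *Chrng* therefore lie inside that gene as well, and not before its first exon.

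On GRCm38 *Chrnd* (87190607 to 87200070) and *Chrng* (87204657 to 87212694) are neighbours on the plus strand of chromosome 1, 4587 bp apart. *Chrna1* lies on chromosome 2 (73563215 to 73580338, minus strand), *Chrnb1* on chromosome 11 (69784036 to 69795943, minus strand) and *Chrne* on the same chromosome (70614883 to 70619216, minus strand). *Rapsn* (91035620 to 91045729) and *Lrp4* (91457511 to 91513779) are both on the plus strand of chromosome 2. *Musk* lies on chromosome 4 (58285960 to 58374303, plus strand), *Dok7* on chromosome 5 (35056766 to 35087839, plus strand) and *Colq* on chromosome 14 (31523082 to 31591343, minus strand). The exons of *Rapsn* share 4 bp with *Gm13778* on the opposite strand, which has a row in the count matrix. Those of *Colq* share 199 bp with *Gm49387* on the same strand, which has no row there. Whether *Gm49387* was in the annotation used for counting is not known. A small part of the reads of *Rapsn*, and of *Colq* if it was, could be assigned in more than 1 way.

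Values are CPM, counts scaled to a common library total with TMM factors, and totals per library ran from 18042558 to 45823277 counts. All 10 genes passed the filter on low counts, and the smallest count of any of them in any library was 10. *Mtm1* itself was at 14.9 to 15.6 CPM in WT, 13.5 to 17.7 in WT + TAM, 2.91 to 3.63 in Mtm1-/y and 3.05 to 3.71 in Mtm1-/y + TAM, so every library matched its genotype label. All 10 markers of fast muscle fibres were detected in each group, with summed levels of 179000 to 238000 CPM in WT and 142000 to 184000 CPM in Mtm1-/y. The Schwann cell sum was 80.3 to 117 CPM in WT and 105 to 145 CPM in Mtm1-/y, the satellite cell sum 22.6 to 33.9 and 27 to 35.6 CPM, the macrophage sum 26.4 to 46.8 and 30.3 to 80.3 CPM, and the fibroblast sum 1250 to 1580 and 358 to 1950 CPM. Of the 7 satellite cell markers, 3 were higher and 3 lower in Mtm1-/y at an edgeR adjusted p under 0.05. Their log2 fold changes ran from -4.09 to 4.72, so the satellite cell sum hides changes in both directions. The endothelial sum was 376 to 493 CPM in WT and 191 to 264 CPM in Mtm1-/y, and all 5 endothelial markers were lower there. The adipocyte sum was 189 to 229 and 146 to 213 CPM and the red cell sum 69.1 to 96.2 and 14.9 to 66.5 CPM, and no marker on any of these lists was at 0 in a group. The adipocyte sum came mostly from 1 marker, at 202 and 177 CPM on average. The median log2 fold change of the 5 adipocyte markers was -1.76, with 0 at an edgeR adjusted p under 0.05. These are whole muscles, in which a higher share of cells of a type and more RNA per cell cannot be told apart. The labels number the libraries within a group of mice without saying that each is a separate mouse, so p-values measure the spread between these libraries.

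The first comparison asked what loss of *Mtm1* did to these genes in untreated muscle. All 5 receptor subunits rose in Mtm1-/y muscle, by 2.23- to 4.8-fold, and so did *Dok7* and *Colq*, while *Musk*, *Lrp4* and *Rapsn* did not pass the test. That makes 7 of 10 genes higher and 0 lower by edgeR's quasi-likelihood test, with an adjusted p under 0.05 over 15533 genes. In the same comparison 15.5% of all genes tested were called higher, and 30.4% in either direction. The median log2 fold change was 1.27 over the 10 genes and 0.00 over all genes. The libraries of the 2 groups did not overlap, with Mtm1-/y higher, for 7 of the 10 genes, against 14.8% of all genes tested.

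**Figure D1:**
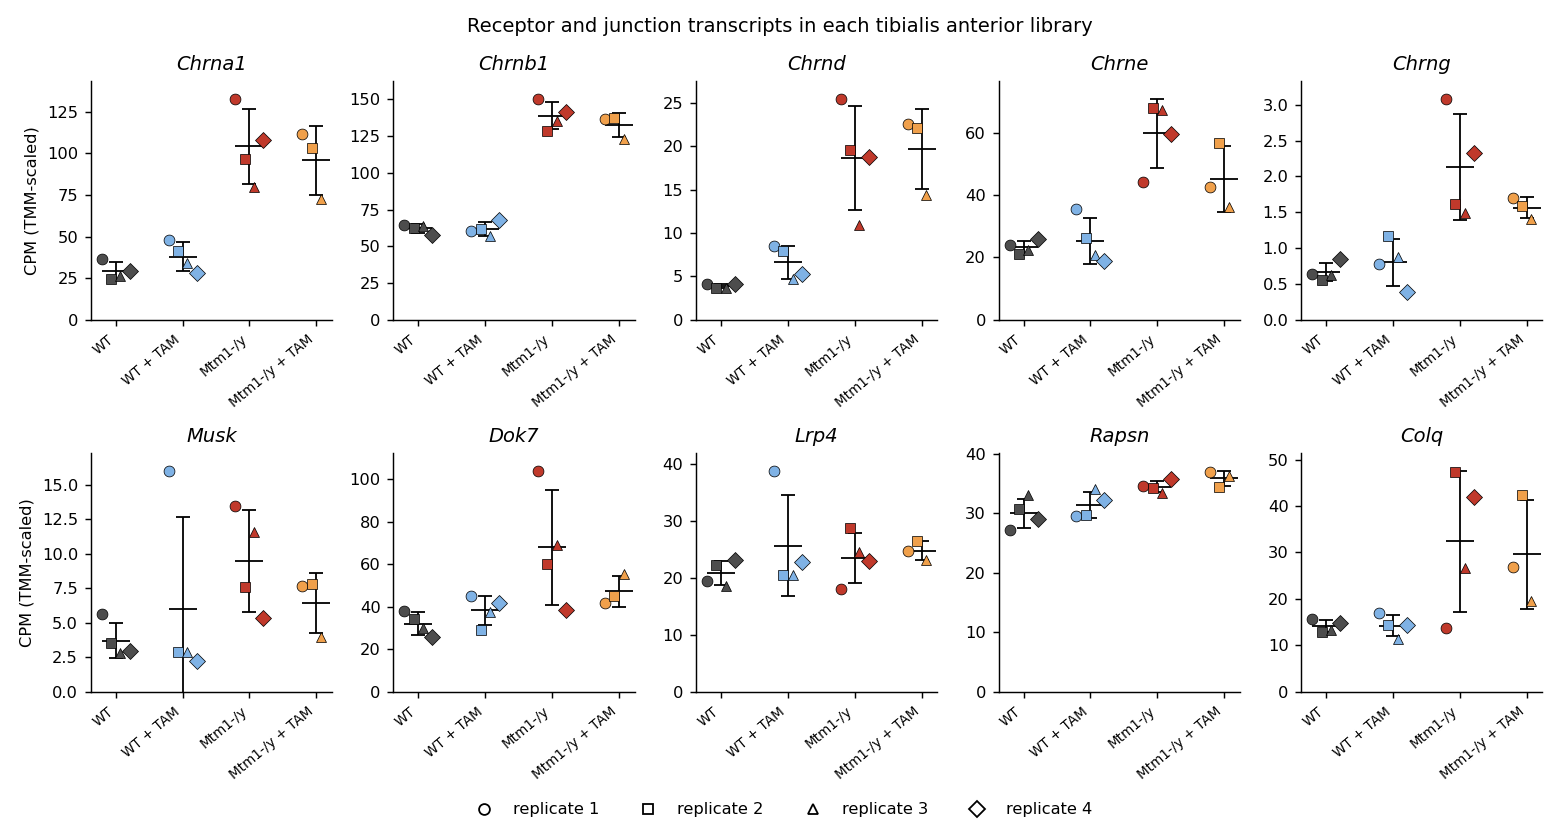
CPM of each gene in each library (linear axis from 0), by group, with a symbol for each replicate number, and the group mean and SD as black bars, cut at 0 for *Musk* in WT + TAM. The 5 subunits stand apart between genotypes with no overlap, *Rapsn* moves by little, and single libraries lead *Musk* and *Lrp4* in WT + TAM at 16 and 38.9 CPM.

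*Chrnd*, the delta subunit, changed most. It was at 4.13, 3.64, 3.63 and 4.11 CPM in the WT libraries and at 25.5, 19.5, 10.9 and 18.8 CPM in the Mtm1-/y libraries. The lowest mutant library, replicate 3, was still above every WT library, which lay close together with a coefficient of variation of 7.27%, against 32% in the mutants. The log2 fold change was 2.26 (SE 0.25, 95% interval 1.73 to 2.80), a 4.8-fold rise, with an adjusted p of 2.8e-05 by edgeR.

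*Chrna1* encodes the alpha subunit, which carries the main part of the acetylcholine binding site and is present in 2 copies in each receptor. Its level was 36.8, 24.3, 26.2 and 29.2 CPM in WT and 133, 96.4, 79.5 and 108 CPM in Mtm1-/y. The groups were far apart, and replicate 3 was again the lowest of the mutants. *Chrna1* rose 3.57-fold (log2 fold change 1.84, SE 0.20, edgeR adjusted p 2.6e-05).

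*Chrnb1*, the beta subunit, had the most even values of the subunits. The WT libraries were at 64.7, 62.6, 63.9 and 57.6 CPM and the Mtm1-/y libraries at 151, 128, 136 and 142 CPM. The coefficient of variation was 5.1% in WT and 6.75% in Mtm1-/y, so the 2.23-fold rise (log2 fold change 1.16, SE 0.08) had the smallest adjusted p of the 10 genes, 6.3e-07 by edgeR.

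*Chrne*, the adult epsilon subunit, was at 23.9, 21.2, 22.3 and 25.9 CPM in WT and at 44.1, 68.1, 67.4 and 59.6 CPM in Mtm1-/y. Here replicate 1 was the lowest of the mutants, although the same library was the highest of them for *Chrna1*, *Chrnb1*, *Chrnd* and *Chrng*. The rise was 2.56-fold (log2 fold change 1.36, SE 0.20, edgeR adjusted p 0.0002).

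*Chrng*, the fetal gamma subunit, was the rarest of the 10. It had 26, 14, 14 and 29 counts in WT, or 0.640, 0.553, 0.620 and 0.851 CPM, and 118, 40, 47 and 104 counts in Mtm1-/y, or 3.09, 1.61, 1.49 and 2.33 CPM. The groups did not overlap, and replicates 1 and 4 were the higher mutant libraries. *Chrng* rose 3.19-fold (log2 fold change 1.67, SE 0.30, 95% interval 1.02 to 2.32, edgeR adjusted p 0.00095).

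*Dok7*, the adaptor that activates MUSK from inside the fibre, was at 38, 34.2, 29.9 and 25.7 CPM in WT and at 104, 60.1, 69.0 and 38.4 CPM in Mtm1-/y. The lowest mutant library, replicate 4, was only just above the highest WT library. *Dok7* rose 2.12-fold (log2 fold change 1.09, SE 0.24, edgeR adjusted p 0.0041).

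*Colq* encodes the collagen tail that anchors acetylcholinesterase in the synaptic basal lamina. Its values were 15.6, 12.8, 13.2 and 14.8 CPM in WT and 13.8, 47.4, 26.7 and 41.9 CPM in Mtm1-/y. Replicate 1 of the mutants was inside the WT range, and the other mutant libraries were all above it. The log2 fold change was 1.20 (SE 0.32, edgeR adjusted p 0.013).

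*Musk*, the receptor kinase, was at 5.61, 3.52, 2.79 and 2.93 CPM in WT and at 13.5, 7.58, 11.6 and 5.38 CPM in Mtm1-/y. Only replicate 4 of the mutants fell within the WT range, just under WT replicate 1. The log2 fold change was 1.34, beside 1.36 for *Chrne*, but with an SE of 0.58 its edgeR adjusted p was 0.096. The spread of *Musk* was estimated over all 4 groups, and 1 WT + TAM library, replicate 1, had 16 CPM. Without that library and Mtm1-/y replicate 1 the log2 fold change of *Musk* was 1.12 with an edgeR adjusted p of 0.014, and with the WT and Mtm1-/y libraries fitted alone it was 1.35 with an adjusted p of 0.013. *Musk* was called in only 3 of 17 alternatives. It was not called in 14, with an edgeR adjusted p of up to 0.21.

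*Lrp4*, the agrin receptor, was at 18.6 to 23.2 CPM in WT and at 18.1 to 28.8 CPM in Mtm1-/y, ranges that overlapped (log2 fold change 0.17, 95% interval -0.22 to 0.57, edgeR adjusted p 0.51). Without Mtm1-/y replicate 1 and WT + TAM replicate 1 its value was 0.28 with an edgeR adjusted p of 0.040. That was the only 1 of 17 alternatives that called *Lrp4*. *Rapsn*, the gene of the clustering scaffold rapsyn, was at 27.2 to 33.0 CPM in WT and at 33.4 to 35.7 CPM in Mtm1-/y. All 4 mutant libraries of *Rapsn* were above all 4 WT libraries, by little (log2 fold change 0.20, SE 0.08, edgeR adjusted p 0.058). DESeq2 gave 0.22 with an adjusted p of 0.022, and the adjusted p was also under 0.05 without WT replicate 3 (0.034) or without Mtm1-/y replicate 3 (0.038). *Rapsn* was called in 5 of 17 alternatives in all. It was not called in 12, with an edgeR adjusted p of up to 0.18.

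Mtm1-/y replicate 1 stood apart among these genes. It had the highest *Chrna1*, *Chrnb1*, *Chrnd*, *Chrng*, *Musk* and *Dok7* of the untreated mutants and their lowest *Chrne*, *Colq* and *Lrp4*. It also had the lowest fibre, fibroblast and red cell sums of all libraries, 142000, 358 and 14.9 CPM, whose part in these values was not tested. Without this library, 7 of the 10 genes were again called higher against WT, and 4524 of all genes were called in either direction, beside 4727 with it. With WT + TAM replicate 1 left out as well, 9 were called, *Rapsn* being the exception, and the calls over all genes rose too, to 5257.

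The next comparisons asked what tamoxifen did in each genotype. No member passed the test in Mtm1-/y + TAM against Mtm1-/y (0 of 10), where 0.0129% of all genes tested were called. The edgeR test gave 0 members at an unadjusted p under 0.05, beside 861 of the 15533 genes tested. DESeq2 and limma-voom called 0 members as well. They gave 1 and 0 members at an unadjusted p under 0.05, beside 938 and 879 of all genes. The median log2 difference over the 10 genes was -0.13, against 0.00 over all genes.

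**Figure D2:**
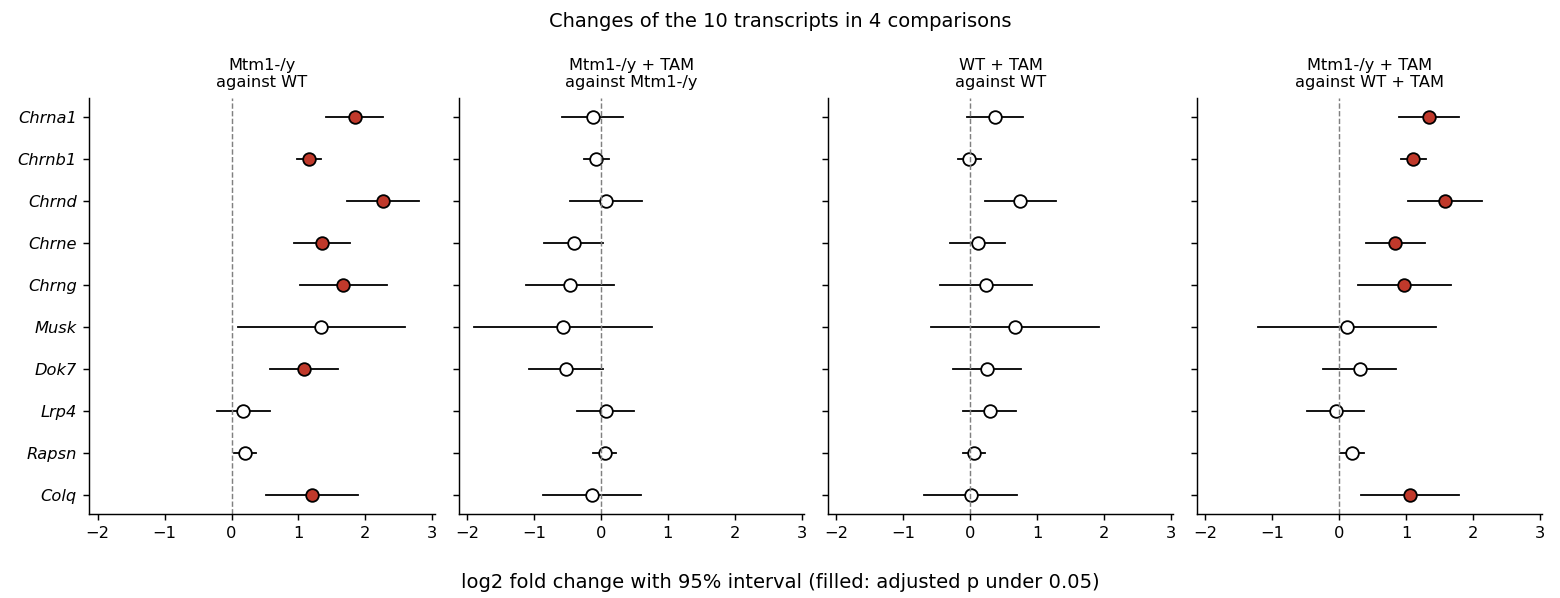
Log2 fold change of each gene (points) with its 95% interval (lines) in 4 comparisons, with filled points at an edgeR adjusted p under 0.05. There are 7 filled points for Mtm1-/y against WT and 6 for Mtm1-/y + TAM against WT + TAM, none for tamoxifen in either genotype, and the intervals of *Musk* are the widest.

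For the subunits in treated mutants, *Chrna1* was at 112, 103 and 72.5 CPM in the 3 Mtm1-/y + TAM libraries, *Chrnb1* at 137, 137 and 123 CPM and *Chrnd* at 22.6, 22.1 and 14.4 CPM. All but 2 of these values were inside the range of the untreated mutants, the exceptions being replicate 3 of *Chrna1* and of *Chrnb1*, which were below it. *Chrne* was at 42.5, 56.7 and 36.1 CPM, with 2 of 3 libraries below the lowest untreated mutant, and *Chrng* at 1.70, 1.59 and 1.41 CPM. The log2 difference of *Chrne* was -0.41 (95% interval -0.85 to 0.04) and that of *Chrng* -0.46 (-1.12 to 0.20), with edgeR adjusted p of 0.85 and 0.88.

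These intervals say what the libraries can show. For *Chrnb1*, whose spread was small, the interval of the tamoxifen difference in mutants was -0.26 to 0.12 on the log2 scale, set beside its genotype difference of 1.16. For *Chrna1* it was -0.57 to 0.33, for *Chrnd* -0.47 to 0.61 and for *Rapsn* -0.12 to 0.23. For *Dok7*, at 41.6, 44.9 and 55.2 CPM in treated mutants, the difference was -0.52 (-1.07 to 0.03), and for *Musk*, at 7.63, 7.81 and 3.95 CPM, it was -0.56 (-1.89 to 0.77). *Colq* was at 26.8, 42.4 and 19.6 CPM (difference -0.13, interval -0.86 to 0.60) and *Lrp4* at 23.1 to 26.5 CPM (0.07, -0.35 to 0.50).

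In wild type muscle, too, 0 of 10 genes passed the test for tamoxifen, against 0.309% of all genes tested. DESeq2 and limma-voom also called 0. In edgeR 1 gene, *Chrnd*, had an unadjusted p under 0.05, beside 1757 of the 15533 genes tested. *Chrnd* was at 8.5, 7.95, 4.66 and 5.30 CPM in WT + TAM, all above the WT libraries at 3.63 to 4.13 CPM. Groups that did not overlap, with WT + TAM higher, were found for 4.22% of all genes tested. The log2 fold change of *Chrnd* was 0.75 (SE 0.25, 95% interval 0.22 to 1.29), with an adjusted p of 0.25.

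The other subunits of treated wild type muscle overlapped with WT. *Chrna1* was at 48.0, 41.5, 34.1 and 27.8 CPM (log2 fold change 0.38, 95% interval -0.05 to 0.80) and *Chrnb1* at 56.7 to 68.2 CPM (-0.01, -0.19 to 0.16). *Chrne* was at 35.4, 26.1, 20.8 and 18.8 CPM (0.11, -0.30 to 0.53) and *Chrng*, with 19, 23, 36 and 10 counts, at 0.777, 1.17, 0.869 and 0.381 CPM (0.24, -0.44 to 0.93). *Dok7* was at 29.0 to 44.9 CPM, *Rapsn* at 29.4 to 34.0 CPM and *Colq* at 11.3 to 16.9 CPM, with log2 fold changes of 0.26, 0.06 and 0.01.

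For *Musk* and *Lrp4* a single WT + TAM library decided the group mean. *Musk* was at 16, 2.86, 2.85 and 2.21 CPM and *Lrp4* at 38.9, 20.5, 20.6 and 22.8 CPM, replicate 1 being the high one in each. Replicate 1 also had the highest *Chrne*, *Chrna1*, *Chrnd*, *Dok7* and *Colq* of its group. Its Schwann cell sum of 204 CPM and its fibroblast sum of 4700 CPM were the highest of all 15 libraries and its endothelial sum of 245 CPM the lowest of the wild type libraries, and their part in these values was not tested.

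Against WT + TAM, the treated mutants had 6 of the 10 genes higher and 0 lower by edgeR, where 10.6% of all genes tested were called higher and 20.1% in either direction. The 6 were the 5 subunits and *Colq*, and the median log2 fold change was 0.90 over the 10 genes and -0.02 over all genes. The groups did not overlap for 7 of the 10, these 6 and *Rapsn*, against 17.2% of all genes tested with treated mutants higher. The macrophage sum was 37.9 to 56.5 CPM in WT + TAM and 58.9 to 101 in Mtm1-/y + TAM, with 0 of 8 markers called, and the fibre sum 174000 to 201000 and 158000 to 161000 CPM, with 1 of 10 called lower. The endothelial sum was 245 to 457 and 201 to 259 CPM, with 3 of 5 markers called lower, and the part of these cells in the receptor levels was not tested. *Chrnd* was 2.99-fold higher (log2 fold change 1.58, SE 0.26, adjusted p 0.00089), *Chrna1* 2.53-fold (1.34, SE 0.21, 0.00067), *Chrnb1* 2.15-fold (1.1, SE 0.09, 2.8e-06) and *Chrne* 1.79-fold (0.84, SE 0.21, 0.011) by edgeR.

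*Chrng* and *Colq* were close to the threshold, at 1.96-fold (edgeR adjusted p 0.047) and 2.08-fold (0.043). Each was no longer called without any 1 of several libraries. *Chrng* lost the call without WT + TAM replicate 1, 3 or 4 or any Mtm1-/y + TAM library (adjusted p 0.069 to 0.12), and *Colq* without WT + TAM replicate 2, 3 or 4 or Mtm1-/y + TAM replicate 1 or 2 (0.075 to 0.22). Without Mtm1-/y + TAM replicate 2 the call of *Chrne* was lost too (log2 fold change 0.64, adjusted p 0.076), which left 3 members called. *Rapsn* had a log2 fold change of 0.19 (adjusted p 0.11), *Dok7* 0.30 (0.44), *Lrp4* -0.05 (0.89) and *Musk* 0.11 (0.93) by edgeR. Without WT + TAM replicate 1 the value of *Musk* was 1.28 with an adjusted p of 0.024.

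The interaction term tested whether the genotype difference itself was other under tamoxifen. It was called for 0 of the 10 genes by edgeR and, equally, for 0% of all genes tested. An unadjusted p under 0.05 in edgeR was found for 1 member, beside 1650 of the 15533 genes tested. DESeq2 and limma-voom called 0 members. All 10 estimates were below 0, that is, the genotype difference was smaller between the treated groups, and their median was -0.51 against -0.01 over all genes. The estimates ran from -0.01 for *Rapsn* and -0.06 for *Chrnb1* to -0.78 for *Dok7* (95% interval -1.53 to -0.03, unadjusted p 0.043, adjusted p 0.46) and -1.23 for *Musk* (-3.06 to 0.60). The interval held 0 for the other subunits, at -0.50 for *Chrna1* (-1.12 to 0.12), -0.68 for *Chrnd* (-1.44 to 0.08), -0.52 for *Chrne* (-1.13 to 0.09) and -0.70 for *Chrng* (-1.65 to 0.25). Several of these signs rested on single libraries. Without WT + TAM replicate 1 the estimate for *Musk* was -0.06 and that for *Lrp4* was 0.05, and the sign changed in 7 of 23 alternatives for *Rapsn* and in 3 of 23 for *Colq*. For *Musk* it was 0.16 without that library and Mtm1-/y replicate 1. All 10 genes were read from the same libraries, so the common sign is no count of independent results.

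The exchange of the fetal for the adult subunit was read from the counts of *Chrng* and *Chrne* in the same library, a ratio that does not depend on the depth of the library. *Chrng* made up 2.61%, 2.55%, 2.70% and 3.18% of the counts of both genes in WT. In WT + TAM the share was 2.14%, 4.30%, 4.01% and 1.99%. In Mtm1-/y it was 6.54%, 2.31%, 2.17% and 3.76%, and in Mtm1-/y + TAM 3.84%, 2.72% and 3.76%. The WT libraries lay closest together, and the mutants stood on both sides of them. Mtm1-/y replicate 1 had the highest share of all (Wilson 95% interval 5.49% to 7.78%), and its interval did not touch those of the other 3 mutant libraries, which reached at most 4.54%, or those of the treated mutants, which reached at most 5.37%. It did overlap with the intervals of WT + TAM replicate 2 (2.88% to 6.37%) and replicate 3 (2.91% to 5.5%). Such intervals cover counting error only.

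**Figure D3:**
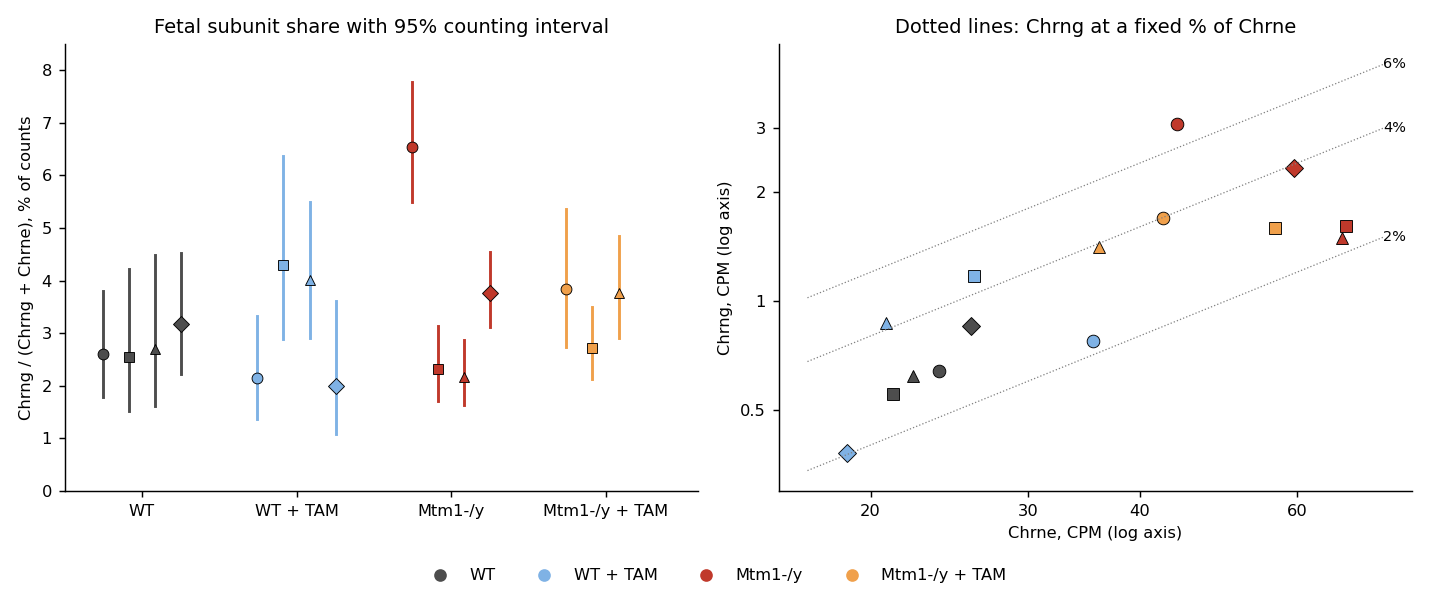
Left, *Chrng* as a share of the counts of *Chrng* and *Chrne* in each library (points) with Wilson 95% intervals (lines), by group; right, CPM of both genes in each library on log axes, with dotted lines where *Chrng* is a fixed percentage of *Chrne*. The libraries of both genotypes lie along the same lines, between shares of 1.99% and 4.30% apart from Mtm1-/y replicate 1 at 6.54%.

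Both subunits thus rose in Mtm1-/y muscle while no difference in their ratio passed the test. The mean log2 ratio of *Chrng* to *Chrne* was -5.11 ± 0.14 (SD, n = 4) in WT, -5.01 ± 0.59 (n = 4) in WT + TAM, -4.84 ± 0.76 (n = 4) in Mtm1-/y and -4.81 ± 0.29 (n = 3) in Mtm1-/y + TAM. Between Mtm1-/y and WT the difference was 0.27 (two-sided exact permutation test p = 0.657, interval of the shifts that the test does not reject -0.57 to 1.37). Without Mtm1-/y replicate 1 it was -0.07, so the direction rests on that library. For Mtm1-/y + TAM against WT + TAM the difference was 0.20 (exact p = 0.629, interval -1.11 to 1.46).

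Tamoxifen gave differences in this ratio of 0.03 in mutants (exact p = 0.914, interval -2.32 to 1.51) and 0.10 in wild type (exact p = 0.743, interval -0.65 to 0.76). Adjusted over these 4 tests, each p was 0.914, and the smallest p that the design allows is 0.0286. The intervals include ratios changed by more than 2-fold in the mutant comparisons, so a moderate shift towards the fetal subunit was not detectable with these libraries. Divided by transcript length, *Chrng* made up 1.47% to 1.85% of both transcripts in WT and 1.25% to 3.85% in Mtm1-/y, so *Chrne* was the main form in every library.

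Levels of different genes were compared as CPM per kb of the principal transcript. In WT the order was *Chrnb1* (28.9 ± 1.47 CPM per kb, SD), *Rapsn* (18.7 ± 1.53), *Chrne* (14.7 ± 1.28), *Dok7* (11.5 ± 1.92), *Chrna1* (6.64 ± 1.25), *Colq* (4.97 ± 0.46), *Lrp4* (2.64 ± 0.27), *Chrnd* (1.33 ± 0.10), *Musk* (1.11 ± 0.39) and *Chrng* (0.24 ± 0.05). Neighbours in this order did not overlap between libraries except *Chrne* with *Dok7* and *Chrnd* with *Musk*. In Mtm1-/y the order was *Chrnb1* (64.5 ± 4.36), *Chrne* (37.6 ± 7.01), *Dok7* (24.4 ± 9.81), *Chrna1* (23.8 ± 5.11), *Rapsn* (21.5 ± 0.58), *Colq* (11.4 ± 5.35), *Chrnd* (6.38 ± 2.04), *Lrp4* (2.98 ± 0.56), *Musk* (2.84 ± 1.1) and *Chrng* (0.77 ± 0.26).

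*Rapsn* had rank 2 in WT and rank 5 in Mtm1-/y, below *Chrne*, *Dok7* and *Chrna1*, and *Chrnd* stood above *Lrp4*. This order depends on the length used: per kb of all exons joined, *Rapsn* at 19.1 CPM per kb in Mtm1-/y was above *Dok7* at 15.9, and *Musk* at 2.52 was above *Lrp4* at 2.25. In the mutants *Chrne*, *Dok7* and *Chrna1* each overlapped with the next gene in the order, as did *Colq* with *Chrnd* and *Lrp4* with *Musk*. The alpha transcript, of whose protein each receptor holds 2 copies, was at a lower level per length than the beta transcript in every group, 6.64 against 28.9 CPM per kb in WT and 23.8 against 64.5 in Mtm1-/y. The treated groups kept *Chrnb1* at the top, at 28.6 ± 2.22 CPM per kb in WT + TAM and 61.5 ± 3.72 in Mtm1-/y + TAM, and *Chrng* at the bottom, at 0.29 ± 0.12 and 0.56 ± 0.05.

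**Figure D4:**
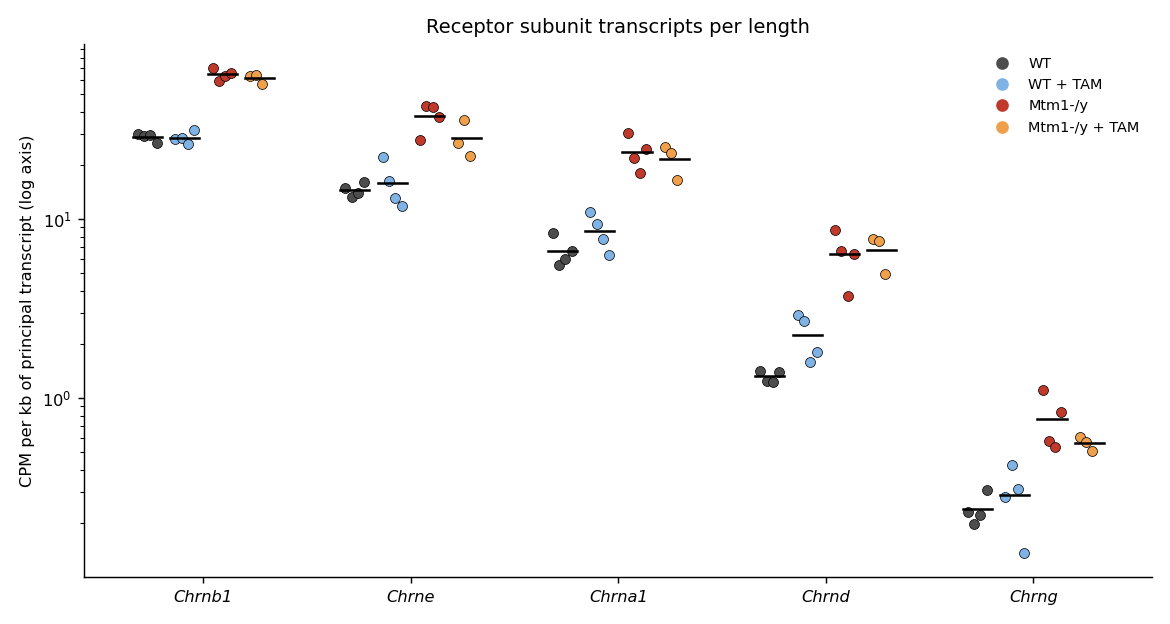
CPM per kb of principal transcript (log axis) for the 5 receptor subunits in each library (points), by group, with the group means as bars. *Chrnb1* is the highest and *Chrng* the lowest subunit in every group, and the mutant groups are above the wild type groups for each subunit.

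Within groups the genes did not all vary together. With each library set against its group mean in log2 CPM, Pearson's r over the 15 libraries was 0.855 for *Chrna1* with *Chrnd* (0.837 without the 2 libraries farthest from the median of *Chrna1*) and 0.69 for *Chrna1* with *Chrng* (0.595). *Chrne* went with *Lrp4* (0.777, and 0.56 without its 2 farthest libraries) and *Colq* (0.712 and 0.672), and hardly with *Chrng* (0.071 and 0.324). These are descriptions of 15 libraries that share their scaling, with no test. Among genes that averaged a log2 CPM of 1 or more, those most like *Chrng* by this measure were *Lhx6* (0.898), *Sfxn2* (0.862) and *Lrrc41* (0.85), with 0.772, 0.668 and 0.75 after leaving out WT + TAM replicates 4 and 2. Those most like *Chrne* were *Col14a1* (0.908), *Enho* (0.907) and *Sub1* (0.906), with 0.874, 0.847 and 0.844 when the first replicates of WT + TAM and of Mtm1-/y were left out. Genes picked as the highest r of all genes at that level have high values by the choice itself. How high r would be without any relation was not tested.

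The other genes of the junction were taken from 5 lists with 64 genes, of which 63 were tested. In Mtm1-/y against WT, 17 of the 63 were higher and 14 lower, with a median log2 fold change of 0.14, against 15.5% and 14.9% of all genes tested.

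Of the genes of agrin and neuregulin signalling, 6 of 19 were higher and 4 lower. *Erbb2*, a neuregulin receptor subunit at the junction, rose from 5.62 ± 0.39 to 14.4 ± 1.49 CPM (SD, n = 4 each, log2 fold change 1.35, edgeR adjusted p 2.7e-06), and its partner *Erbb3* from 6.99 ± 1.21 to 10.3 ± 1.75 CPM (0.56, adjusted p 0.012). *Macf1*, a cytoskeletal linker, was higher by 0.75 on the log2 scale (adjusted p 0.0026). *Dnaja3*, a chaperone that binds MUSK, and the kinase gene *Abl2* were the lowest of those called, at -0.43 and -0.36 (0.014 and 0.017). *Agrn*, which encodes agrin, was at 41.7 ± 5.30 CPM in WT and 33.2 ± 8.41 in Mtm1-/y (log2 fold change -0.33, adjusted p 0.12 by edgeR). *Nrg1*, a neuregulin, had 0 to 8 counts in a library and was under the filter.

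Of the cholinesterases, basal lamina and membrane scaffold, 2 of 18 were higher and 5 lower. *Ank3*, an ankyrin, and *Lamb2*, the synaptic laminin beta chain, were higher by 0.56 and 0.38 on the log2 scale (edgeR adjusted p 0.027 and 0.020). *Lama4*, a laminin alpha chain also made by endothelial cells, fell from 41.2 ± 6.20 to 15.5 ± 5.53 CPM (-1.41, adjusted p 0.00096) and *Col4a3*, a basement membrane collagen, from 4.12 ± 0.74 to 1.93 ± 0.37 CPM (-1.1, adjusted p 0.00073). The endothelial sum moved the same way, and its part in the level of *Lama4* was not tested. *Ache*, the acetylcholinesterase that *Colq* anchors, was at 60.03 ± 6.70 CPM in WT and 93.7 ± 34.4 in Mtm1-/y (log2 fold change 0.64, edgeR adjusted p 0.060). Mtm1-/y replicate 1 was at 42.4 CPM, below the WT range of 55.1 to 69.6 CPM. The other untreated mutants were above that range, at 106 to 115 CPM.

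Of the transcription factors and deacetylases that act on receptor genes, 6 of 14 were higher and 2 lower. *Runx1*, a transcription factor known to rise in denervated muscle, went from 1.6 ± 0.24 to 18 ± 7.21 CPM (log2 fold change 3.48, edgeR adjusted p 1.6e-05). *Myog*, which encodes the E-box binding factor myogenin, went from 7.95 ± 2.17 to 48.8 ± 17.6 CPM (2.62, adjusted p 0.00059), and *Hdac4*, a deacetylase that links denervation to *Myog*, from 33.9 ± 4.59 to 69.7 ± 8.5 CPM (1.04, adjusted p 5.2e-05). *Dach2*, a repressor of *Myog*, fell from 2.80 ± 0.26 to 0.51 ± 0.20 CPM (-2.47, adjusted p 0.0022), and the ETS factor gene *Etv4* was lower by 0.79 (log2 fold change -0.79, adjusted p 0.0072). Another ETS factor gene, *Etv5*, went the other way, higher by 0.66 on the log2 scale (adjusted p 0.0051 by edgeR).

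Of the other genes known to rise in denervated muscle, *Ncam1*, the neural cell adhesion molecule, went from 9.55 ± 2.04 to 66.7 ± 26.9 CPM (log2 fold change 2.80, edgeR adjusted p 3.1e-05) and *Gadd45a*, a stress response gene, from 14.9 ± 1.37 to 116 ± 40.9 CPM (2.95, 2.8e-05). Of the receptor assembly and glycosylation genes 0 of 9 were higher and 3 lower, among them *Gfpt1*, an enzyme of the hexosamine pathway, at -0.91 (adjusted p 9.1e-05) and *Tmem35a*, a nicotinic receptor chaperone, at -1.14 (0.031). *Tmem35a* was scarce, at 0.62 ± 0.14 CPM in WT and 0.27 ± 0.14 in Mtm1-/y, and its log2 fold change between the treated groups was 0.07 (adjusted p 0.93 by edgeR).

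**Figure D5:**
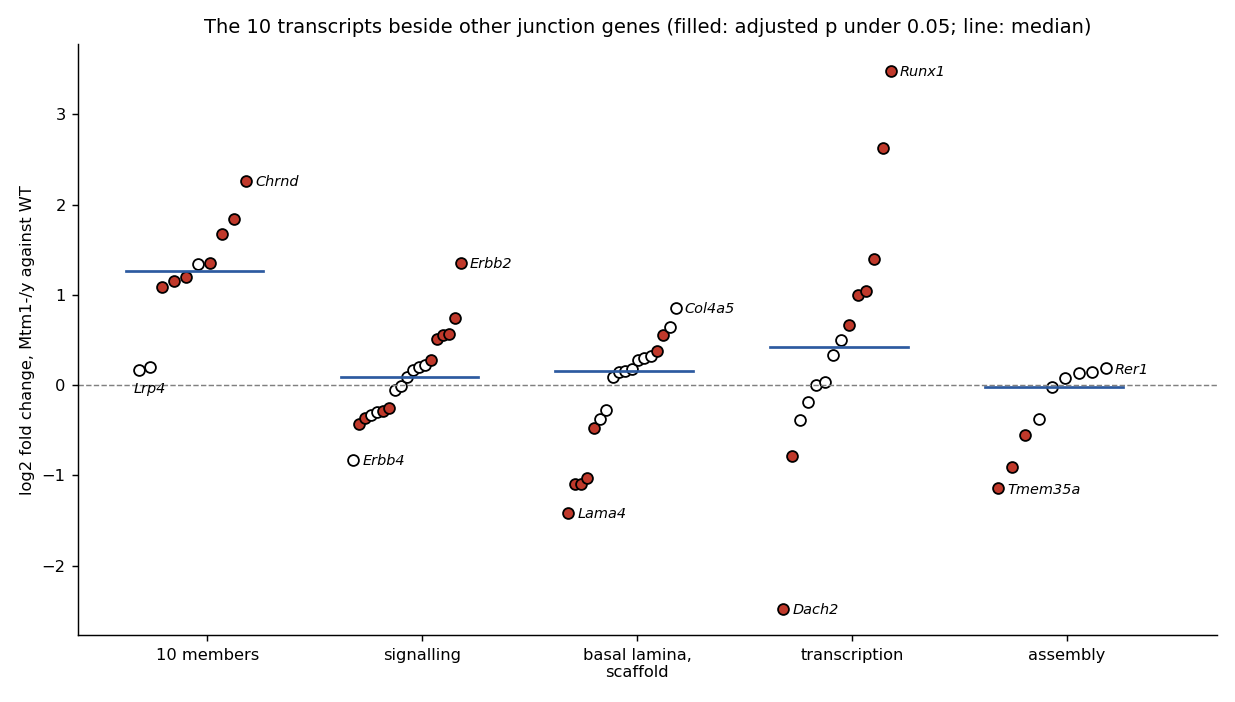
Log2 fold change in Mtm1-/y against WT for each of the 10 genes and each tested gene of 4 of the lists (points in rising order), filled at an edgeR adjusted p under 0.05, with list medians as lines. The median of the 10 genes is 1.27, those of the signalling, basal lamina and assembly lists are 0.10, 0.15 and -0.02, and the transcription list runs from *Dach2* at -2.47 to *Runx1* at 3.48.

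Of the nicotinic subunits of neurons and other cells, 3 of 11 listed genes were tested, with 1 higher and 1 lower. The most abundant of them, *Chrna9*, was at 0.93 ± 0.50 CPM in WT and 7.48 ± 3.20 in Mtm1-/y (log2 fold change 3.02, edgeR adjusted p 0.0064). Between the treated groups the log2 fold change of *Chrna9* was 0.42 (adjusted p 0.71 by edgeR), and the interaction term had an adjusted p of 0.41. For tamoxifen itself the edgeR adjusted p of *Chrna9* was 0.996 in mutants and 0.16 in wild type. The smaller difference between the treated groups is therefore no sign of a fall in treated mutants. Of the motor axon and nerve terminal genes, 5 of 12 were tested, 1 higher and 1 lower, and the most abundant, *Vamp1*, a vesicle protein, was at 40.7 ± 6.22 CPM in WT and 35.9 ± 5.48 in Mtm1-/y (-0.18, adjusted p 0.30). The genes *Chrna3*, *Chat*, *Slc18a3* and *Slc5a7* were not analysed here.

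In Mtm1-/y + TAM against WT + TAM, 13 of the 63 genes were higher and 10 lower, beside 10.6% and 9.46% of all genes tested, with a median log2 fold change of -0.09. *Erbb2* was higher by 1.26 on the log2 scale (edgeR adjusted p 1.4e-05), *Myog* by 2.83 (0.00089), *Hdac4* by 0.89 (0.00049) and *Ncam1* by 2.2 (0.00036), and *Agrn* was at -0.53 (0.042). *Erbb3* was at 0.32 (adjusted p 0.18) and *Ache* at 0.51 (0.18) by edgeR, and neither passed the test. *Lamb2* and *Ank3*, higher in untreated mutants, were at -0.05 and -0.10 (adjusted p 0.81 and 0.77 by edgeR). For tamoxifen itself 0 of the 63 genes were called in either genotype by edgeR, DESeq2 or limma-voom. An unadjusted p under 0.05 in edgeR was found for 1 in mutants and 6 in wild type. Of all 15533 genes tested, 861 and 1757 had such a p. *Myog* was at 60.8 ± 12 CPM (n = 3) in treated mutants and *Ncam1* at 56.3 ± 7.16 CPM, with log2 differences of 0.31 and -0.25 from the untreated mutants (adjusted p 0.92 and 0.91 by edgeR).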

How the data were processed

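Reads per gene were measured in 15 libraries. The deposited values are raw counts made by the authors, with no normalization, and the submitters' processing notes list STAR 2.5.3a, cutadapt 1.10, HTSeq 0.6.1p1 and Bowtie2 2.2.8, with both mm10 and GRCm38 as build. Their annotation release and strand setting: not given in the sources used here. Symbols, positions and lengths were from GENCODE M21. Groups came from the sample labels.

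Counts were fitted with edgeR 4.0.16 (R 4.3.3): filterByExpr (minimum count 10, 15533 genes kept), TMM factors, a robust quasi-likelihood fit of 4 group means, and Benjamini-Hochberg adjustment over all genes tested. The scripts were tested on simulated data. The ratio used log2 of counts plus 0.5 and exact permutation over libraries. Alternatives used DESeq2 1.42.0, limma 3.58.1, other factors, filters and libraries. Genes outside the 10 were named if pre-listed (*Agrn*, *Nrg1*, *Erbb2*, *Erbb3*, *Ache*, *Myog*, *Hdac4*, *Ncam1*) or among the 2 highest or lowest called of a list in Mtm1-/y against WT, or the most abundant of the nicotinic and nerve lists. *Gadd45a* and *Etv5* were named after their values were seen. A gene counted in the lists is not reported here. The genes and lists were chosen with earlier results of these data known.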

Additional observations from a re-analysis of the deposited data

Results flagged for a closer look

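In a check of each gene's CPM and of the *Chrng* to *Chrne* ratio in every group of 4 libraries (33 sets of values), 2 values lay far from the other 3 of their group. *Musk* was at 16 CPM in WT + TAM replicate 1, against 2.21 to 2.86 CPM in the other libraries, a gap of 0.953 of the whole range. *Lrp4* was at 38.9 CPM in the same library, against 20.5 to 22.8 CPM, a gap of 0.878 of the range. Gaps past the limit used arise by chance in about 1 in 20 sets.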

How the results depend on the processing

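The 7 members called in Mtm1-/y against WT were 7 to 9 under the 18 alternatives, and 7 to 8 with each library left out. In Mtm1-/y + TAM against WT + TAM the 6 called were 3 to 6 with each library left out and 4 to 7 otherwise. The 0 called for tamoxifen and for the interaction were 0 under every alternative run. Among the other junction genes, the 31 called in Mtm1-/y against WT were 25 to 33 with each library left out and 15 when a log2 fold change over 1 was asked as well. They were 40 without both Mtm1-/y replicate 1 and WT + TAM replicate 1, where 5257 of all genes were called, beside 4727 in the main fit. The 23 called under tamoxifen were 16 to 21 with each library left out and 13 with a log2 fold change over 1. Of 890 values for single genes, 17 lost and 11 gained a call, 0 reversed a called direction and 44 changed sign where neither value was called. With each library left out, the difference in the *Chrng* to *Chrne* log2 ratio ranged from -0.07 to 0.48 (Mtm1-/y against WT), -0.18 to 0.37 (tamoxifen in mutants), -0.09 to 0.28 (tamoxifen in WT) and 0.02 to 0.39 (treated groups), and the smallest exact p under any alternative was 0.2. Whether the replicate numbers pair the libraries was not settled. Same-numbered libraries of different groups correlated at -0.113 to 0.306 (6 of 21 over 0.1), beside -0.338 to 0.214 for other numbers (10 of 63). Of the 15 libraries, 5 were most like a library of their own number. With the replicate block, 8 members were called in Mtm1-/y against WT (*Musk* added, edgeR adjusted p 0.024) and 5 under tamoxifen (*Chrng* lost, 0.076). *Chrng* had 10 to 118 counts in a library, which sets the counting error of its ratio.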
